A study of Mus musculus with 28 samples.

Results

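Transcripts of 32 genes of sterol and fatty acid synthesis were followed in sorted mouse epidermal stem cells during imiquimod treatment, after recovery and after wounding. The genes were chosen by symbol and comprised 18 enzymes of the sterol pathway, 5 genes that sense, control or carry sterols, and 9 genes of fatty acid synthesis. All 32 were found among the 47729 gene rows, and all 32 were among the 17299 genes that passed the filter on low counts. Sterol enzymes were higher under imiquimod at day 6, lower 6 h after a wound in control skin, and higher at 12 h than at 6 h after a wound.

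Per the labels, C57BL/6 mice labelled female, with no other allele named, were treated from postnatal day 60 for 6 days with topical imiquimod, an agonist of Toll-like receptor 7 that provokes psoriasis-like inflammation, or with control vanicream. Cells positive for integrin α6, integrin β1 and Sca1 and negative for CD34 were sorted at the end of treatment (day 6) and 30 days after it (day 30). Full-thickness wounds were made in the back skin at day 30, and cells at the wounds were sorted 6 h or 12 h later. The 16 RNA-seq libraries thus form 8 groups of 2: imiquimod and control at day 6, and post-imiquimod and control at day 30, at 6 h and at 12 h after wounding. The 12 ATAC-seq samples among the 28 samples of the series were not analysed here. The labels do not say whether the 2 libraries of a group came from separate mice or from pools, so p-values measure the spread between these libraries only.

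Library totals ran from 23623968 to 76993427 counts, and the members took 0.222% to 0.479% of a library's counts. The transcripts of the sorted proteins fitted the gate, with Itga6 at 504 to 2038 CPM (a count scaled to the total of its library), Itgb1 at 207 to 1179 CPM, Ly6a (Sca1) at 180 to 923 CPM and Cd34 at 0.2 to 10.4 CPM. Several libraries stood apart. Both day 30 libraries numbered 1 held at most 1 Xist read and 6023 (post-imiquimod) and 7830 (control) Y-linked reads despite their label, against at most 2 Y-linked reads in any other library. Both day 30 libraries numbered 2 were rich in some transcripts of suprabasal epidermis. The cornified envelope gene Lor stood there at 556 (post-imiquimod) and 467 (control) CPM, against at most 14.9 CPM in any other library. Flg, Ivl and Sbsn were also highest in these libraries, but Krt1 and Tgm1 were not. The summed suprabasal markers were highest in the control one, at 29210 CPM. The post-imiquimod one, at 16900 CPM, lay below imiquimod library 2 of day 6, at 17190 CPM. In bulk RNA, fewer cells of a type and less RNA per cell cannot be told apart.

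As background, cells make cholesterol from acetyl-CoA through mevalonate, squalene and lanosterol, and they make long-chain fatty acids from acetyl-CoA through malonyl-CoA. Both branches are driven by SREBP transcription factors: when sterols in the endoplasmic reticulum are scarce, SCAP carries an SREBP to the Golgi for cleavage, and when sterols are plentiful INSIG proteins hold it back. SREBP2, encoded by Srebf2, acts mainly on sterol genes and SREBP1, encoded by Srebf1, mainly on fatty acid genes. In epidermis, cholesterol and fatty acids are built into the membranes of dividing basal cells and, with ceramides, into the lipid barrier of the outer layers.

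Promoter windows are shown for Hmgcs1, Srebf2, Insig1 and Fasn. They were searched because most sterol enzymes moved together and SREBP is known to bind beside the factor NF-Y, whose site holds the CCAAT box. RefSeq's promoters on GRCm38.p6 held 25 of the 32 members. Sqle, Fdft1, Fdps, Stard4, Scd1, Scd2 and Fads1 had no entry. Srebf1 held CCAAT at 166 and at 30 bases before different starts, and its windows are not shown. In the 250 bases before a start, CCAAT was present on either strand in 19 of these 25 genes (76%), against 37.5% of the 27025 genes in the table. It was present in 14 of 15 sterol enzymes, in 3 of 4 control genes and in 2 of 6 fatty acid genes. The sterol regulatory element core TCACNCCAC was found in 1 of the 25, Hmgcs1, against 1.22% of all genes, and the E-box CACGTG in 5 (20%), against 6.86% of all genes. Matches that overlap were each counted, such as a pair of CCAAT matches in Fasn that share bases, and a match is a description of letters, not of binding. Capitals mark the matches in the windows below, read 5′ to 3′ on the gene's strand, in which ATTGG is CCAAT on the other strand.
Hmgcs1 (chr13:119690101-119690350, plus strand): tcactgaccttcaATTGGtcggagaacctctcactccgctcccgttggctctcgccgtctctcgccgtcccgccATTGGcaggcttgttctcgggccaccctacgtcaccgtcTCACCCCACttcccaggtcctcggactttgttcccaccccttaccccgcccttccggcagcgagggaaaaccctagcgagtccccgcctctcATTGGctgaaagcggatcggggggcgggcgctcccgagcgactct
Srebf2 (chr15:82147019-82147268, plus strand): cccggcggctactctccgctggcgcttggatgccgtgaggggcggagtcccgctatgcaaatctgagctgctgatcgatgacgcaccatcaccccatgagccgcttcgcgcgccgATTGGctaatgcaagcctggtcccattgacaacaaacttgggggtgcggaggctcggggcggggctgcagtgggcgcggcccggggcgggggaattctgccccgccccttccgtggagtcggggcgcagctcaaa
Insig1 (chr5:28071162-28071411, plus strand): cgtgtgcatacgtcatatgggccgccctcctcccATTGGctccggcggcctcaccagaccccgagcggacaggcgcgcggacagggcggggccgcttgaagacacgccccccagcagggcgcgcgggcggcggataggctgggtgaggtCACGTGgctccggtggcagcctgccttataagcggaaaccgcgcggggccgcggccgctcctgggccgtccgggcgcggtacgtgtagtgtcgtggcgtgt
Fasn (chr11:120824548-120824797, minus strand): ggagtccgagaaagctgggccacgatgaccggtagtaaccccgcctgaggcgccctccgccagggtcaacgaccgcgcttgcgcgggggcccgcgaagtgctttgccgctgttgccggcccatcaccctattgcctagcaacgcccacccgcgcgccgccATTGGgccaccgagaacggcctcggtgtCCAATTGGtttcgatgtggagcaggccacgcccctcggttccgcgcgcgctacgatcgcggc
The window of Hmgcs1, which encodes the enzyme that makes HMG-CoA, held 3 matches to CCAAT, on both sides of the sterol regulatory element core. The window of Insig1 held 1 CCAAT match and 1 E-box. The window of Fasn, which passed the test in none of the comparisons below, also held CCAAT.

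Across the 8 groups the branches followed different courses. Each member's CPM was divided by its own mean over the 16 libraries, and the median over a branch was taken in each library. The 18 sterol enzymes stood at 1.32 and 1.04 in imiquimod libraries and at 0.65 and 0.647 in control libraries at day 6. At day 30 they stood at 0.607 and 0.692 in post-imiquimod libraries and at 0.712 and 1.31 in control libraries. After wounding they stood at 0.615 and 0.591 in post-imiquimod and 0.439 and 0.421 in control libraries at 6 h, and at 1.74 and 1.63 in post-imiquimod and 1.72 and 1.45 in control libraries at 12 h. The 4 libraries at 12 h were thus the highest of all for this branch and the 2 control libraries at 6 h the lowest. The 9 fatty acid genes had their lowest medians, 0.442 and 0.212, in the post-imiquimod libraries at 6 h, against 0.805 and 0.555 in control libraries at 6 h. At day 6 they stood at 1.42 and 1.12 in imiquimod and 1.39 and 1.22 in control libraries, with no gap between treatments.

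**Figure D1:**
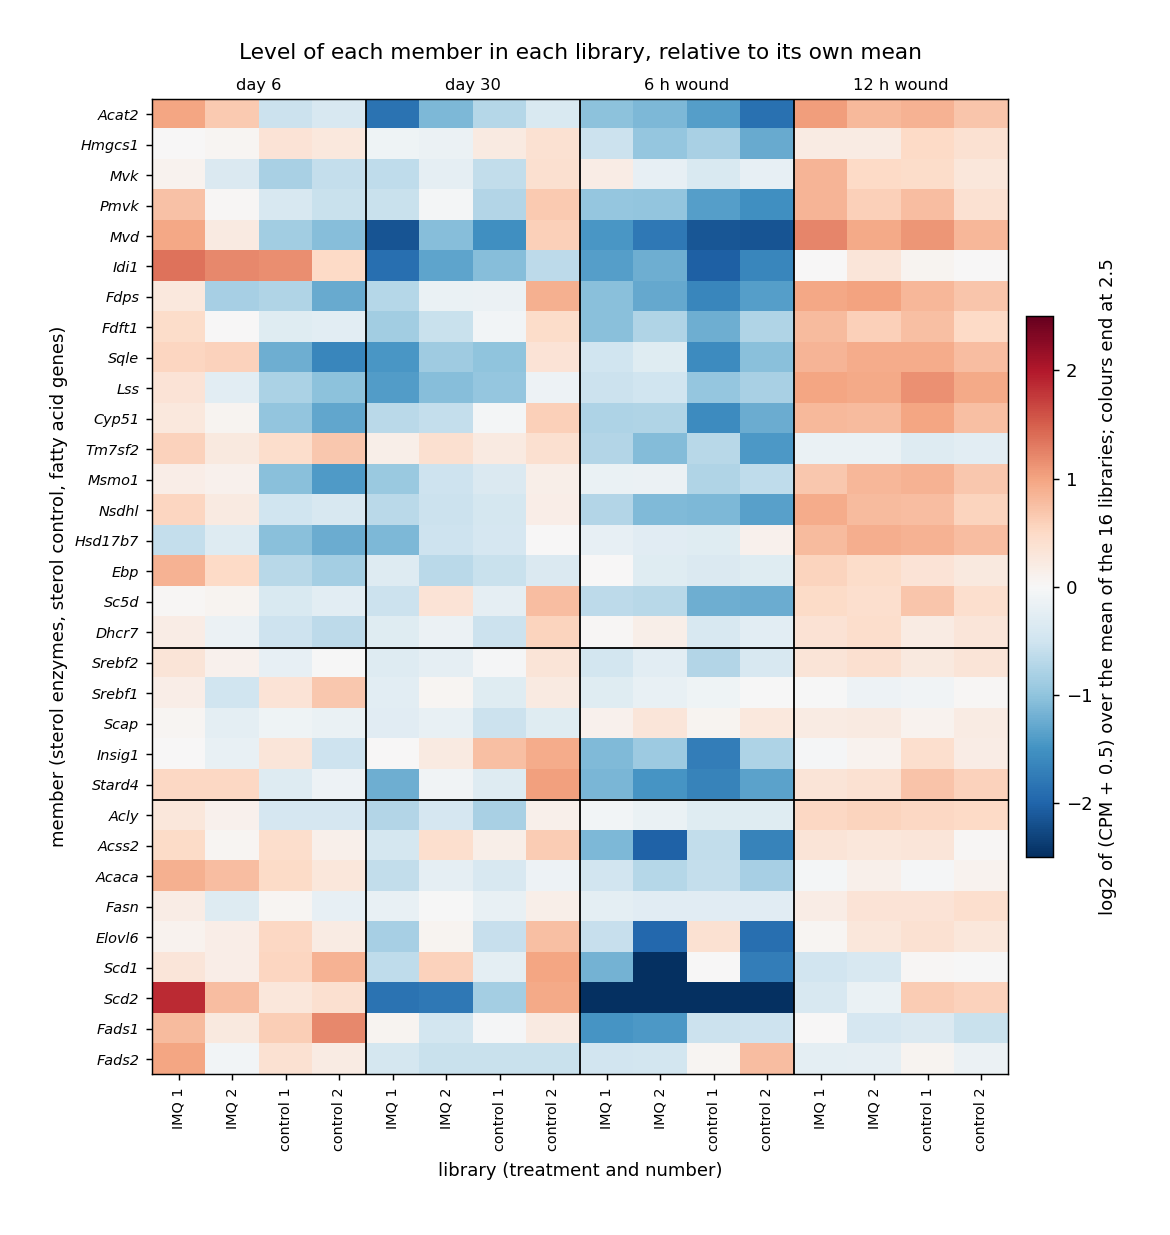
Level of each of the 32 members (rows, in pathway order) in each of the 16 libraries (columns, imiquimod or post-imiquimod to the left of control), as the log2 of CPM plus 0.5 over the mean of that quantity in the 16 libraries, with colours ending at 2.5 in both directions. Most sterol enzyme rows are blue at 6 h and red at 12 h, and Scd2 passes the blue end of the colours in all 4 libraries at 6 h.

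At day 6, imiquimod was compared with control cream to ask how the treatment itself moved these genes. Of the 32 members 18 rose and none fell, among 3744 genes that rose (21.6%) and 2589 that fell (15%) of the 17299 tested (edgeR's quasi-likelihood test, adjusted p under 0.05). The median log2 change of the members was 0.77 and that of all genes 0.10. The rise lay mainly in the sterol enzymes, of which 14 of 18 rose (median 1.05), with 1 of 5 control genes and 3 of 9 fatty acid genes (median 0.23).

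Sqle, squalene epoxidase, which oxidises squalene before ring closure, stood at 204 and 209 CPM in imiquimod libraries and at 59.8 and 44.9 CPM in control libraries. Both imiquimod libraries lay far above both control libraries. The change was 2.20 ± 0.36 (log2 ± SE, n = 2 each, edgeR adjusted p = 0.000716). Ebp, the sterol isomerase that shifts the ring double bond, stood at 136 and 106 CPM in imiquimod and 45.9 and 41.3 CPM in control libraries, again without overlap (1.68 ± 0.15, edgeR adjusted p = 1.2e-05). Cyp51, the lanosterol demethylase, stood at 197 and 171 CPM against 82.6 and 66.4 CPM in control libraries (1.51 ± 0.20, edgeR adjusted p = 0.000104). Acat2, the cytosolic thiolase at the entry to the pathway, stood at 54.8 and 43.2 CPM in imiquimod and 18.8 and 20.6 CPM in control libraries (1.53 ± 0.21, edgeR adjusted p = 0.000154).

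Other enzymes that rose were Mvd (1.84), the decarboxylase that ends the mevalonate steps, the methyl sterol oxidase Msmo1 (1.57), the lanosterol synthase Lss (1.18) and the phosphomevalonate kinase Pmvk (1.11). The remaining 6 were Nsdhl, Fdps, Hsd17b7, Dhcr7, Mvk and Fdft1, with log2 changes of 0.75 to 1.05. Hmgcs1, the HMG-CoA synthase upstream of mevalonate, did not follow: it stood at 433 and 449 CPM in imiquimod and 546 and 518 CPM in control libraries. With edgeR's scaling factors in the totals these were 416 and 481 CPM in imiquimod and 478 and 452 CPM in control libraries, which overlap. Its log2 change was -0.05 ± 0.16 (edgeR adjusted p = 0.835). Idi1, Sc5d and Tm7sf2 did not pass either, at 0.63, 0.59 and 0.06.

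Among the control genes, Srebf2 rose, with 358 and 310 CPM in imiquimod and 248 and 286 CPM in control libraries (0.53 ± 0.17, edgeR adjusted p = 0.0263). Srebf1 stood at 224 and 142 CPM in imiquimod and 253 and 319 CPM in control libraries (-0.45 ± 0.20, edgeR adjusted p = 0.0958). Insig1 stood at 38.5 and 33.8 CPM against 47.5 and 26.7 CPM in control libraries, an overlap, with a change of 0.17 ± 0.30. The fatty acid genes that rose were the acetyl-CoA carboxylase Acaca (0.67 ± 0.14), the ATP citrate lyase Acly (0.83 ± 0.21) and the desaturase Scd2 (1.28 ± 0.45, edgeR adjusted p = 0.0489). Scd2 stood at 272 and 127 CPM in imiquimod and 90.3 and 97.8 CPM in control libraries, so its change came mostly from library 1. With the libraries paired by number the adjusted p of Scd2 was 0.0706, and over all alternatives it ran from 8.2e-11 to 0.327. Fasn, the fatty acid synthase itself, stood at 386 and 268 CPM against 350 and 291 CPM in control libraries, and Scd1 at 258 and 236 CPM against 304 and 379 CPM. Neither passed the test (0.23 and -0.26).

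Without library 1 of day 6 control 10 members rose, without library 2 of day 6 control 9, and without library 1 of day 6 imiquimod 10 rose and 1, Srebf1, fell. Counts of members with libraries left out, here and below, are given without the share over all genes. They do not set the members apart from other genes. The macrophage and monocyte markers also differed at day 6, where 7 of 10 rose. Their summed level was 77.5 and 82.6 CPM in imiquimod and 21.7 and 11.7 CPM in control libraries. Markers of suprabasal epidermis rose for 3 of 8 (sums of 7750 and 17190 CPM in imiquimod and 5310 and 8648 CPM in control libraries), and library 1 of imiquimod held 7.65% mitochondrial counts. Of 4 basal markers, which mark the sorted cells themselves, Krt14 rose (1.10 ± 0.38) and Trp63 and Col17a1 fell (-0.75 ± 0.21 and -1.64 ± 0.33). Col17a1, a collagen of the basal cell anchor, stood at 1346 and 2793 CPM in imiquimod and 7592 and 7664 CPM in control libraries. Of 11 sebaceous markers tested 2 rose, with sums of 3405 and 642 CPM in imiquimod and 363 and 173 CPM in control libraries. Krt79 alone made up most of each sum, at 3223 and 471 CPM in imiquimod and 286 and 118 CPM in control libraries. The log2 change was positive for 7 and negative for 4 of the 11. The part of any of these markers in the members' changes was not tested.

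**Figure D2:**
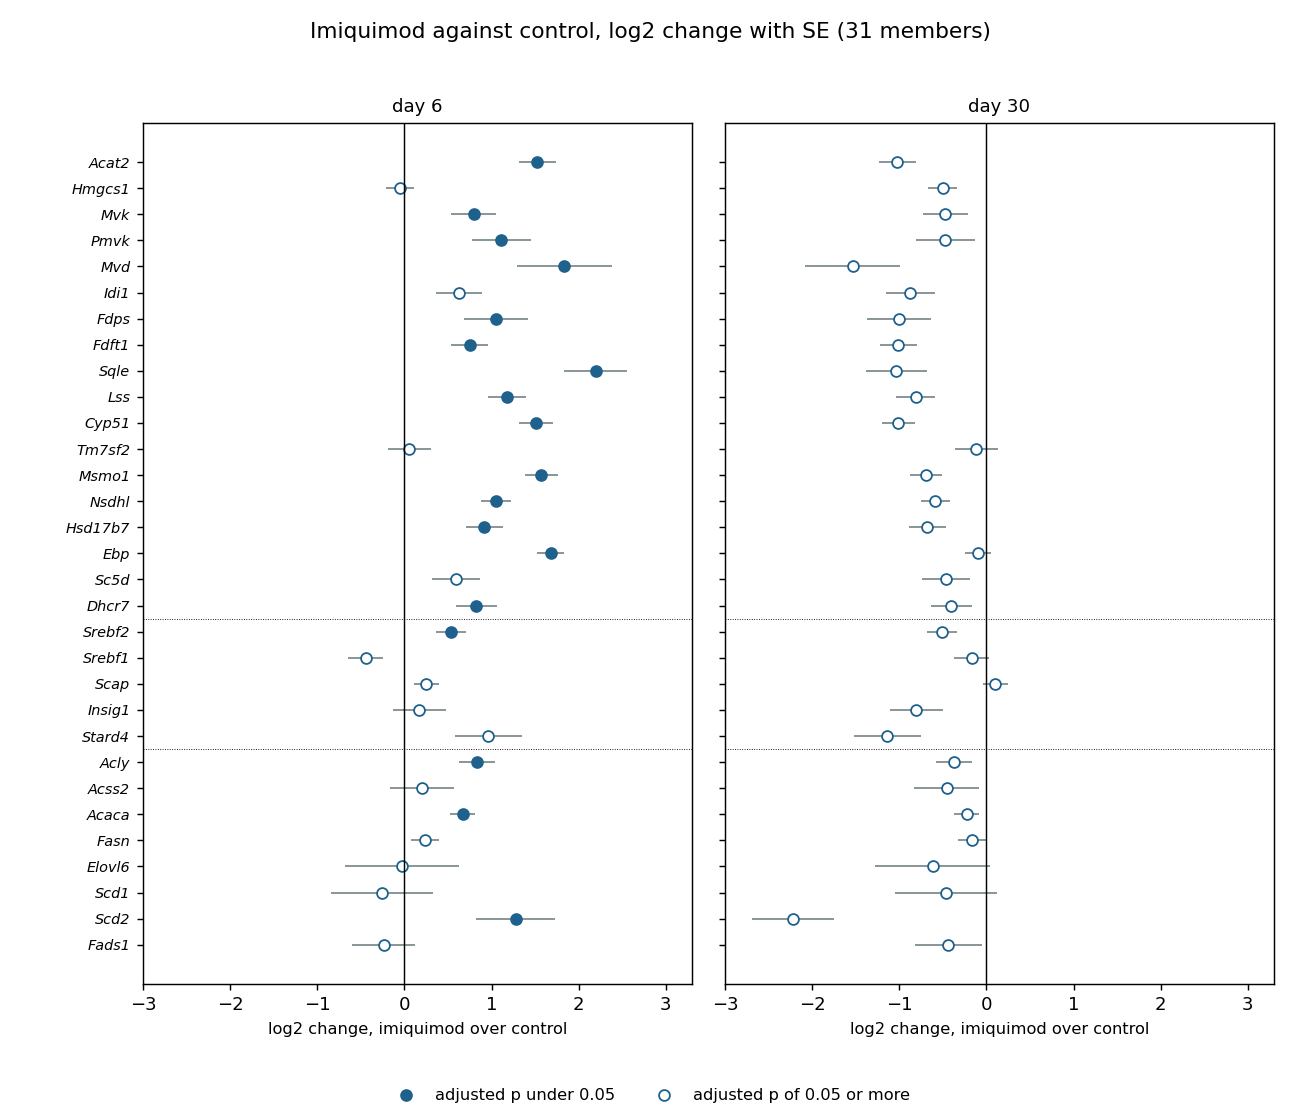
Log2 change of 31 members (all but Fads2) between imiquimod and control libraries at day 6 (left) and between post-imiquimod and control libraries at day 30 (right), with bars of 1 SE from edgeR and filled points for an adjusted p under 0.05. At day 6 most sterol enzymes lie right of 0, and at day 30 all of them lie left of 0 with open points.

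At day 30 the comparison asked what remained in unwounded skin. No member passed, and of all genes 1 rose (0.00578%) and 1 fell (0.00578%). The log2 change was negative for 30 of the 32 members, against 9295 of the 17299 genes tested. All 18 sterol enzymes were negative (median -0.69), while the median of all genes was -0.02. Without library 2 of day 30 control 22 members were negative, 14 of them sterol enzymes (median -0.31). At an unadjusted p under 0.05, 16 members were lower, 12 of them sterol enzymes, and none higher, against 2.06% of all genes lower and 2.08% higher. DESeq2 called 4 members lower at an adjusted p under 0.05, among 10 genes (0.0578%).

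Scd2, a desaturase that puts the first double bond into saturated fatty acids, stood at 20.4 and 21.2 CPM in post-imiquimod and 41.2 and 144 CPM in control libraries. Both post-imiquimod libraries were below both control libraries, which differed widely between themselves (-2.22 ± 0.47, edgeR adjusted p = 0.722). Without library 1 of day 30 control the change of Scd2 was -2.82 (adjusted p = 0.0212), and over all alternatives its adjusted p ran from 2.4e-26 to 1. Fdft1, the squalene synthase that commits farnesyl diphosphate to sterols, stood at 40.8 and 50.7 CPM in post-imiquimod and 71.4 and 103 CPM in control libraries (-1.01 ± 0.21, edgeR adjusted p = 0.626). With the libraries paired by number Fdft1 passed (adjusted p = 0.0367), and its adjusted p over all alternatives ran from 4.8e-05 to 1. Insig1, the brake on SREBP transport, stood at 38.9 and 45.2 CPM in post-imiquimod and 65.4 and 73.6 CPM in control libraries, a change of -0.81 ± 0.31 without overlap that did not pass.

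Control library 2 of day 30, one of those rich in suprabasal transcripts, held the highest day 30 level of many members, among them Sqle at 178 CPM against 69.4 CPM in control library 1, and 50.9 and 75.9 CPM in post-imiquimod libraries. Without that library the change of Sqle was -0.22, against -1.04 with it. Between libraries of the same number, 24 of 32 members, 15 of them sterol enzymes, were lower in the post-imiquimod library in both pairs. This was not counted over all genes, so it does not set the members apart from other genes. The summed suprabasal markers were 14750 and 16900 CPM in post-imiquimod and 15510 and 29210 CPM in control libraries, and their part in these differences was not tested. Fibroblast markers summed to 162 CPM in post-imiquimod library 1 and 16.0 CPM in library 2, against 42.5 and 44.7 CPM in control libraries. Col6a1 made up most of each sum but that of post-imiquimod library 1. It stood at 19.8 and 13.7 CPM in post-imiquimod and 39.8 and 40.1 CPM in control libraries.

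The imiquimod effect of day 6 was set against the one of day 30 in a single test. It was more positive at day 6 for 20 members and more negative for none, among 2368 (13.7%) and 1526 (8.82%) of all genes, with medians of 1.25 for members and 0.10 for all genes. Of the 20, 15 were sterol enzymes. Scd2 differed most, by 3.49 ± 0.66 (edgeR adjusted p = 0.00451), followed by Mvd (3.37), Sqle (3.23), Acat2 (2.55), Cyp51 (2.52) and Msmo1 (2.27). Hmgcs1 (0.45), Insig1 (0.97), Srebf1 (-0.28), Fasn (0.40) and Scd1 (0.21) did not pass, whereas Srebf2 (1.04 ± 0.24) and Acaca (0.90 ± 0.20) did. The number was 13 without library 2 of day 6 control and 13 without library 1 of day 30 post-imiquimod. The libraries of both days also differed in level irrespective of treatment: Idi1, the isomerase that makes the second building block of isoprenoids, stood at 35.0 and 31.2 CPM in imiquimod and 30.6 and 19.0 CPM in control libraries at day 6, and at 3.26 and 5.02 CPM in post-imiquimod and 6.06 and 8.31 CPM in control libraries at day 30.

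At 6 h after a wound, sterol transcripts in control skin were lower than in unwounded skin. Of the 32 members 19 fell and 2 rose in control skin, among 2884 genes that fell (16.7%) and 3119 that rose (18%). The members' median was -1.22 and that of all genes 0.01. In post-imiquimod skin 7 members fell and 3 rose, among 3210 genes that fell (18.6%) and 3485 that rose (20.1%), with a median of -0.17 for members and -0.02 for all genes. With the libraries paired by number within each time, 12 fell and 6 rose in post-imiquimod skin, among 24.3% and 25.6% of all genes. This pairs no 6 h library with a day 30 library. It takes the spread shared by same-numbered libraries out of the spread the test uses.

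In control skin 13 of 18 sterol enzymes fell, and the changes of all 18 were negative (14 without library 2 of day 30 control and 16 without library 1 of 6 h control). Hmgcs1 stood at 247 and 181 CPM at 6 h and at 504 and 560 CPM at day 30, with no overlap (-1.46 ± 0.17, edgeR adjusted p = 6.6e-05). Fdft1 stood at 31.8 and 44.4 CPM at 6 h and 71.4 and 103 CPM at day 30 (-1.32 ± 0.22, edgeR adjusted p = 0.000581). Sqle stood at 46.9 and 68.2 CPM at 6 h and 69.4 and 178 CPM at day 30 (-1.22 ± 0.35, edgeR adjusted p = 0.0189). The groups did not overlap for any of the 3, though for Sqle the gap between them was narrow. Larger falls were those of Fdps (-2.28), Mvd (-2.27), Cyp51 (-1.83), Pmvk (-1.74) and the sterol desaturase Sc5d (-1.74).

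The sensors and carriers fell as well in control skin. Insig1 stood at 11.3 and 22.3 CPM at 6 h and 65.4 and 73.6 CPM at day 30 (-2.18 ± 0.32, edgeR adjusted p = 0.000372). Stard4, which carries sterols through the cytosol, changed by -2.15 ± 0.40 and Srebf2 by -0.85 ± 0.17, and both fell. Scap, the escort of SREBP, rose by 0.45 ± 0.15 (edgeR adjusted p = 0.0308), and Srebf1 stood at -0.17 and did not pass.

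Scd2 showed the largest fall of any member at 6 h. It stood at 7.27 and 10.6 CPM at 6 h and at 41.2 and 144 CPM at day 30 in control skin (-3.50 ± 0.50, edgeR adjusted p = 0.000521), and at 4.49 and 3.84 CPM at 6 h and 20.4 and 21.2 CPM at day 30 in post-imiquimod skin (-2.34 ± 0.50, edgeR adjusted p = 0.0039). In both skins every library at 6 h lay below every library at day 30. The acetate-activating enzyme Acss2 also fell in both, by -1.69 in control and -1.70 in post-imiquimod skin, while Fasn passed in neither (-0.41 and -0.18). Fads2, the delta-6 desaturase, had 0 counts in both control libraries of day 30 and 36 at 6 h, at least 8.53-fold higher against a floor of 3 counts over the group.

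In post-imiquimod skin Insig1 fell by -1.18 ± 0.31, to 17.5 and 20.1 CPM at 6 h, against 38.9 and 45.2 CPM at day 30. Hmgcs1 fell by -0.65 ± 0.16 and the sterol reductase Tm7sf2 by -1.30 ± 0.25. Fads1, the delta-5 desaturase, fell by -2.26 ± 0.42 and Scd1 by -1.84 ± 0.60. Lss (0.69 ± 0.22), Msmo1 (0.53 ± 0.18) and Scap (0.42 ± 0.15) rose. The other panel genes stood at 0.73 for Sqle, -0.20 for Fdft1, -0.10 for Srebf2, -0.16 for Srebf1 and -0.22 for Acaca. In post-imiquimod skin 11 fell and 5 rose without either library of day 30 control (a library of the other skin, without which the filter, the scaling and the shared spread are set anew), and 5 fell and none rose without library 2 of 6 h post-imiquimod.

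The response at 6 h was more positive in post-imiquimod than in control skin for all 18 sterol enzymes (median 1.09), but no member and no other gene passed this test of the difference (0% in either direction). The median was 0.70 without library 2 of day 30 control. At an unadjusted p under 0.05, 17 members were more positive and 2 more negative, against 2.98% and 3.13% of all genes. DESeq2 called 3 more positive, Acat2, Cyp51 and Msmo1, among 9 genes (0.052%). The 2 responses are set against different day 30 libraries, whose sterol levels are given above.

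Other cell markers moved with the 6 h comparison. Macrophage and monocyte markers rose for 3 of 10 in post-imiquimod skin, with sums of 7.44 and 5.37 CPM at 6 h and 2.24 and 2.45 CPM at day 30, and for 7 of 10 in control skin, with 13.1 and 6.15 CPM at 6 h and 2.13 and 2.32 CPM at day 30. Suprabasal markers fell for 2 of 8 in post-imiquimod skin, with 9926 and 6523 CPM at 6 h and 14750 and 16900 CPM at day 30, and for 4 of 8 in control skin, with 6604 and 6889 CPM at 6 h and 15510 and 29210 CPM at day 30. In control skin fibroblast markers rose for 4 and fell for 1 of 12, and melanocyte markers rose for 3 of 5. The log2 change was positive for 11 of the 12 fibroblast markers (median 2.92). Their sums were 78.4 and 36.2 CPM at 6 h and 42.5 and 44.7 CPM at day 30. Col6a1 alone made up 39.8 and 40.1 CPM of the day 30 sums and stood at 16.3 and 14.5 CPM at 6 h. In post-imiquimod skin 1 of 12 fibroblast and 1 of 5 melanocyte markers fell. The part of any of these in the members' changes was not tested.

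At 12 h after a wound, sterol transcripts stood above those of unwounded post-imiquimod skin. In that skin 19 members rose and none fell, among 3518 genes that rose (20.3%) and 2994 that fell (17.3%), with a median of 0.96 for members and 0.02 for all genes. Of the 18 sterol enzymes 14 rose (median 1.40). In control skin 8 rose and 1 fell, among 2848 (16.5%) and 2480 (14.3%) of all genes, with a median of 0.21 for members.

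Lss, which closes the sterol rings, stood at 150.4 and 147 CPM at 12 h and 28.1 and 35.9 CPM at day 30 in post-imiquimod skin (2.16 ± 0.23, edgeR adjusted p = 3.3e-05). In control skin it stood at 167 and 146 CPM at 12 h and 38.4 and 68.5 CPM at day 30 (1.37 ± 0.22, edgeR adjusted p = 0.000707). Every library at 12 h exceeded every library at day 30 in both skins. Acat2 also rose in both, by 2.39 ± 0.22 in post-imiquimod and 1.16 ± 0.21 in control skin. Further rises in post-imiquimod skin were Mvd (2.63), Sqle (1.99), Idi1 (1.80), Hsd17b7 (1.59), Scd2 (1.50) and Nsdhl (1.43), with Fdft1 at 1.36.

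In control skin the others that rose were Hsd17b7 (0.84), Msmo1 (0.68), Nsdhl (0.60), Acly (0.59) and Ebp (0.57), besides Fads2 with 22 counts at 12 h, at least 4.11-fold above the floor. Tm7sf2 fell, by -0.84 ± 0.25. Sqle (0.86), Fdft1 (0.23), Hmgcs1 (-0.05) and Srebf2 (-0.06) did not pass in control skin. In post-imiquimod skin Srebf2 (0.59 ± 0.17), Scap (0.40), Acly (1.07) and Acaca (0.41) rose, whereas Hmgcs1 (0.27), Insig1 (-0.15), Fasn (0.31) and Scd1 (-0.58) did not pass.

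The count in control skin depended on the day 30 libraries. Leaving out day 30 control library 1 gave 2 that rose and 1 that fell, leaving out its library 2 gave 14, and leaving out 12 h control library 1 gave 2. With the libraries paired by number within each time, 12 rose and 3 fell, among 22.4% and 20.2% of all genes. That pairing joins no 12 h library to a day 30 library. In post-imiquimod skin 12 rose without library 1 of day 30 post-imiquimod. Between post-imiquimod and control skin no member or other gene passed the test of a difference in the 12 h response (0% in either direction). At an unadjusted p under 0.05, 13 members were more positive and none more negative in post-imiquimod skin, against 1.33% and 1.58% of all genes. DESeq2 called no member and 1 gene (0.00578%). Suprabasal markers fell at 12 h for 3 of 8 in post-imiquimod and 2 of 8 in control skin. Macrophage and monocyte markers rose for 1 of 10 in post-imiquimod skin, with sums of 10.9 and 15.2 CPM at 12 h and 2.24 and 2.45 CPM at day 30. They rose for 3 of 10 in control skin, with 10.6 and 10.6 CPM at 12 h and 2.13 and 2.32 CPM at day 30. Mrc1 made up most of the 12 h sums, at 7.23 and 11.4 CPM in post-imiquimod and 5.47 and 6.56 CPM in control skin. The log2 change was positive for 8 of 10 in post-imiquimod and 7 of 10 in control skin. The part of any of these markers was not tested.

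The comparison of 12 h with 6 h wounds sets no day 30 library against another, though all libraries of the fit set its filter, scaling and spread. Here the members stood out by number. In post-imiquimod skin 26 genes rose (0.15%) and 4 fell (0.0231%), and 8 of those that rose were members, which is 30.8% of them. In control skin 84 genes rose (0.486%) and 28 fell (0.162%), and 16 of those that rose were members, which is 19% of them. No member fell. The median log2 change was 1.26 in post-imiquimod and 1.33 in control skin for the members, and 0.01 and 0.00 for all genes. These comparisons share no library, though they share the spread of the fit. The 8 members called in post-imiquimod skin were Acat2, Hmgcs1, Fdps, Fdft1, Lss, Cyp51, Nsdhl and Scd2. All 8 were also called in control skin, where they made up 50% of the members called. This overlap was not counted over all genes, so it does not set the members apart from other genes.

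Hmgcs1 stood at 498 and 497 CPM at 12 h and 296 and 222 CPM at 6 h in post-imiquimod skin (0.92 ± 0.16, edgeR adjusted p = 0.0483). In control skin it stood at 611 and 565 CPM at 12 h and 247 and 181 CPM at 6 h (1.41 ± 0.17, edgeR adjusted p = 0.0024). The libraries of the 2 times did not overlap in either skin. Fdft1 stood at 130.2 and 114 CPM at 12 h and 36.2 and 44.3 CPM at 6 h in post-imiquimod skin (1.57 ± 0.22, edgeR adjusted p = 0.00904). In control skin Fdft1 stood at 127 and 106 CPM at 12 h and 31.8 and 44.4 CPM at 6 h (1.55 ± 0.22, edgeR adjusted p = 0.00802). Every 12 h library of Fdft1 exceeded every 6 h library in both skins. Fdft1 overlaps the protease gene Ctsb by 774 bases, and in these unstranded counts their reads there cannot be told apart.

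Nsdhl, which removes a methyl group from the sterol ring, stood at 72.2 and 66.0 CPM at 12 h and 22.7 and 17.4 CPM at 6 h in post-imiquimod skin (1.76 ± 0.17, edgeR adjusted p = 0.000782). In control skin Nsdhl changed by 1.88 ± 0.17. Cyp51 changed by 1.54 ± 0.20 in post-imiquimod and 2.22 ± 0.20 in control skin. Scd2 had the largest change in both, 3.84 ± 0.52 and 3.62 ± 0.50. It stood at 55.8 and 66.2 CPM at 12 h and 4.49 and 3.84 CPM at 6 h in post-imiquimod skin, and at 115 and 112 CPM at 12 h and 7.27 and 10.6 CPM at 6 h in control skin, with a wide gap between the times.

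Of the members called in control skin only over all genes, the larger changes were Mvd (3.20), Stard4 (2.12), Sqle (2.08), Pmvk (2.04), Idi1 (1.97), Sc5d (1.77) and Msmo1 (1.42), and Acaca also rose (0.70). In post-imiquimod skin these stood at 2.76 for Mvd, 1.65 for Stard4, 1.26 for Sqle, 1.71 for Pmvk, 1.52 for Idi1, 1.11 for Sc5d, 0.89 for Msmo1 and 0.63 for Acaca, and none passed. Whether the change differed between skins was not tested for these. Insig1 (1.04 in post-imiquimod and 1.43 in control skin), Srebf2 (0.69 and 0.78), Fasn (0.49 and 0.61) and Scd1 (1.26 and 0.61) passed in neither, and Srebf1 stood at 0.15 and -0.03. Srebf1 thus held between 162 and 204 CPM in all 8 wound libraries.

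**Figure D3:**
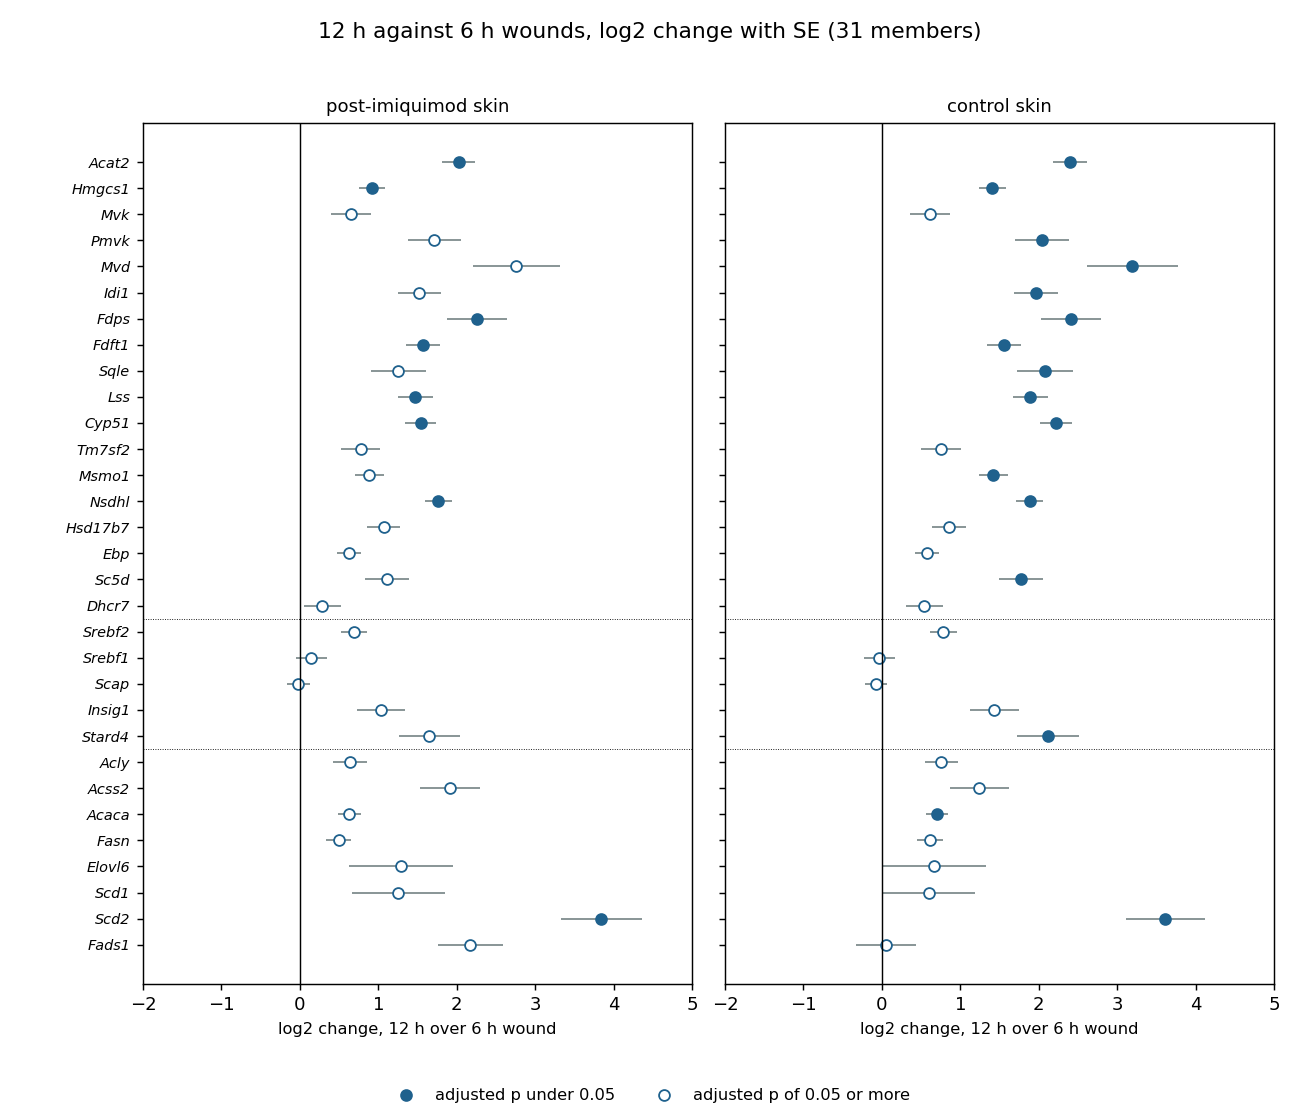
Log2 change of 31 members (all but Fads2) between wounds of 12 h and of 6 h, in post-imiquimod skin (left) and control skin (right), with bars of 1 SE from edgeR and filled points for an adjusted p under 0.05. All 18 sterol enzymes lie right of 0 in both skins, Scd2 lies farthest right, and Srebf1 and Scap lie near 0.

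These counts moved with the libraries kept. Counts with a library left out are given without the share over all genes, so they do not set the members apart. In post-imiquimod skin 2 members rose without library 1 of 6 h post-imiquimod, 0 without its library 2, 3 and 2 without library 1 and 2 of 12 h post-imiquimod, 5 without either library of 12 h control and 15 without either library of day 30 control. In control skin 6 and 8 rose without library 1 and 2 of 6 h control, and 5 and 7 without library 1 and 2 of 12 h control. With the libraries paired by number within each time, 26 members rose in each skin. All genes that rose were then 424 (2.45%) in post-imiquimod and 756 (4.37%) in control skin, of which members made up 6.13% and 3.44%. That pairing joins no 12 h library to a 6 h library, so it is no paired test of time. It takes the spread shared by same-numbered libraries out of the spread the test uses. DESeq2 called 21 members higher in post-imiquimod skin among 239 genes (1.38%), of which members made up 8.79%. No marker of another cell type passed the test in either skin. The log2 change of the 12 fibroblast markers was nonetheless negative for all 12 at 12 h in control skin (median -2.35), with sums of 16.8 and 16.2 CPM at 12 h and 78.4 and 36.2 CPM at 6 h. The Langerhans and dendritic cell markers summed to 63.3 and 52.3 CPM at 12 h and 23.1 and 17.3 CPM at 6 h in post-imiquimod skin. H2-Ab1, H2-Aa and Cd74 made up most of each sum. Cd207 of the same list stood at 0.44 and 0.34 CPM at 12 h and 0.29 and 0.67 CPM at 6 h. The log2 change was positive for 3 and negative for 2 of the 5 tested. The part of any of these markers in the members' changes was not tested.

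Prior imiquimod was compared with control cream at each wound time. No member passed at 6 h, where 4 genes rose (0.0231%) and 2 fell (0.0116%), or at 12 h, where no gene passed in either direction (0%). At 6 h, 7 members were higher and 2 lower at an unadjusted p under 0.05, against 2.78% and 3.53% of all genes, and DESeq2 called no member and 108 genes (0.624%). At 12 h no member was past an unadjusted p of 0.05, against 0.948% of all genes higher and 1.51% lower, and DESeq2 called no member and 26 genes (0.15%). The smallest two-sided p of an exact permutation test with 2 libraries against 2 is 0.333, so single values could not be tested that way.

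At 6 h the median was 0.45 for the 18 sterol enzymes and -0.73 for the 9 fatty acid genes. Without library 1 of 6 h control the medians were 0.45 and 0.01, so the negative median of the fatty acid genes rested on that library. Sqle stood at 99.5 and 114 CPM in post-imiquimod and 46.9 and 68.2 CPM in control libraries, without overlap (0.92 ± 0.35, edgeR adjusted p = 0.667). Cyp51 stood at 96.2 and 96.8 CPM in post-imiquimod and 54.4 and 69.1 CPM in control libraries (0.67 ± 0.19, edgeR adjusted p = 0.42). Neither passed the test. Scd2 stood at 4.49 and 3.84 CPM in post-imiquimod and 7.27 and 10.6 CPM in control libraries (-1.06 ± 0.49), and at 12 h at 55.8 and 66.2 CPM in post-imiquimod and 115 and 112 CPM in control libraries (-0.83 ± 0.45). It was lower in both post-imiquimod libraries at day 30, at 6 h and at 12 h, and passed at none of these times.

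Scd1 and Elovl6, the elongase of palmitate, differed widely between libraries at 6 h. Scd1 stood at 92.3 and 35.3 CPM in post-imiquimod and 210.2 and 62.2 CPM in control libraries (-1.05 ± 0.59, edgeR adjusted p = 0.876). Elovl6 stood at 41.96 and 15.7 CPM in post-imiquimod and 82.3 and 16.7 CPM in control libraries (-0.73 ± 0.66). In each group library 1 was the higher one for both genes. With the libraries paired by number Scd1 passed (-0.97, adjusted p = 0.0186), and its adjusted p over all alternatives ran from 1.3e-05 to 1. Library 1 of 6 h control also held the most transcripts of several sebaceous genes at 6 h: the wax synthase Awat1 stood at 1.3 and 0.2 CPM in post-imiquimod and 5.0 and 0.2 CPM in control libraries, and the fatty acyl reductase Far2 at 13.2 and 4.4 CPM in post-imiquimod and 35.5 and 5.1 CPM in control libraries. Without that library the change of Scd1 at 6 h was 0.00. The summed sebaceous markers, which Krt79 leads, were 183 and 236 CPM in post-imiquimod and 257 and 273 CPM in control libraries at 6 h, the fat cell gene Adipoq was at most 0.0417 CPM, and the fat cell markers summed to at most 4.32 CPM in any library.

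**Figure D4:**
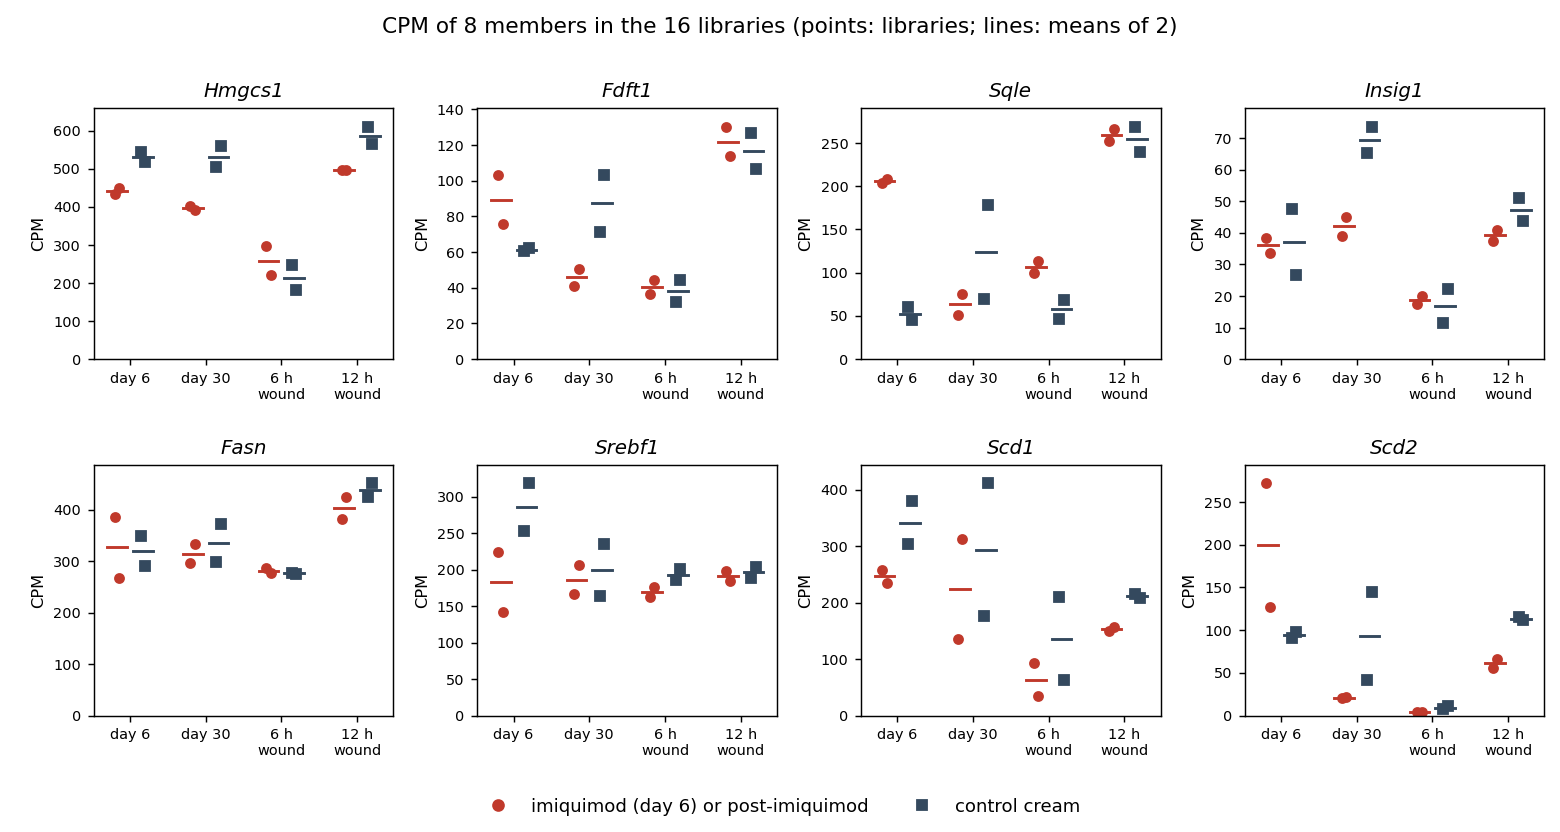
CPM of 8 members in the 16 libraries, by state along the horizontal axis, with circles for imiquimod or post-imiquimod libraries, squares for control libraries, lines at the means of 2 and vertical axes that start at 0. Sqle is highest in the 4 libraries at 12 h and in both imiquimod libraries at day 6, Srebf1 lies between 162 and 204 CPM in the 8 wound libraries, and Scd2 is near 0 in all 4 libraries at 6 h.

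Genes next to the 2 branches were read from lists chosen by pathway. At day 6, 21.6% of all genes rose and 15% fell. Of 9 genes that supply malonyl-CoA, NADPH or citrate, 7 rose and none fell. The largest rises were those of the pentose phosphate enzymes G6pdx (1.91 ± 0.16) and Pgd (1.87 ± 0.11). Mid1ip1, which activates acetyl-CoA carboxylase, followed (1.40 ± 0.22). Of 11 genes of SREBP processing and sterol sensing 2 rose and 2 fell, near the shares over all genes. Among them the sterol-binding protein gene Tmem97 stood at 1.86 ± 0.16. Of 12 genes of side branches of the mevalonate pathway 4 rose, led by Pdss1 (1.44 ± 0.25), which builds the tail of ubiquinone. Of 20 ceramide and barrier lipid genes 8 rose and 2 fell, with the desaturases Degs2 (3.25 ± 0.62) and Degs1 (2.71 ± 0.22) changing most among those that passed. Of 13 other elongases and desaturases 6 rose, of 15 fatty acid activation and glycerolipid genes 5 rose and 1 fell, and of 17 genes of mitochondrial fatty acid oxidation 6 rose and 1 fell.

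Between 12 h and 6 h wounds few of these neighbours moved with the members. Of all genes 0.15% rose in post-imiquimod and 0.486% in control skin. Tmem97 rose in both skins, by 0.89 ± 0.16 in post-imiquimod and 1.01 ± 0.16 in control skin, as 1 of 11 genes of its list. Idh1, which makes cytosolic NADPH, rose by 1.42 ± 0.24 in post-imiquimod and 1.25 ± 0.23 in control skin, with Pgd (0.57 ± 0.11) in control skin, as 1 and 2 of 9 genes. Degs2 rose in control skin (3.10 ± 0.64) as 1 of 20 ceramide genes. None of the 12 side branch genes, 13 other elongases and desaturases, 15 activation and glycerolipid genes and 17 oxidation genes passed in either skin. At 6 h against day 30 in control skin, 7 of the 17 oxidation genes fell and 2 rose, against 16.7% and 18% of all genes. Hadh stood at -1.18 ± 0.19 and Acadm at -1.13 ± 0.14.

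Some members are uncertain for reasons of counting. Acat2 and the Scd genes have close paralogs, and Fdps, at 2.44 to 17.8 CPM, may have near-identical copies, so their reads may be lost or miscounted. Fads1 and Fads2 were at most 4.68 and 0.959 CPM in any library, and Fads2 had 1 count in post-imiquimod and 0 in control libraries at day 30, so no fold is given there. Nsdhl and Ebp lie on the X chromosome, where the libraries with Y-linked reads carry 1 copy. Without both libraries numbered 1 at day 30, 4 members were called at 12 h against day 30 in control skin, and without both numbered 2, 16 were called.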

How the data were processed

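RNA was measured in 16 libraries of sorted epidermal cells. RNA isolation used Trizol and a Zymo kit, then Illumina's TruSeq RNA preparation, per the labels' protocols; no strand setting is named, and the unstranded count column was used. The submitters' processing notes list STAR and the mm10 build. The files deposited by the authors hold raw counts, 1 whole number per gene and library. No source used here names their annotation release.

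From these counts, CPM was computed on library totals. edgeR 4.0.16 (R 4.3.3) fitted 1 model of 8 group means to the 16 libraries, with TMM scaling, its filter on low counts and robust quasi-likelihood tests (8 residual degrees of freedom). Benjamini-Hochberg adjustment ran over 17299 genes, with a threshold of 0.05, and the SE is the log2 change over the root of F. The common biological coefficient of variation was 23%. The procedure was tested on simulated data. Alternatives were DESeq2 1.42.0, RLE scaling, no filter, only the compared groups, each library left out, and the library number as a block. The labels give only the numbers; deviations of same-numbered libraries correlated at 0.22, 0.452, 0.539 and 0.323 at day 6, day 30, 6 h and 12 h, so the numbers were taken to pair libraries within a time. Leaving out both day 30 libraries of 1 number was chosen after seeing the data.

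The members and lists were chosen with earlier results of these data known. All members could be named; up to 8 per direction were named by size in a comparison, with a panel of 10. The floor of 3 counts covers counting error alone, because PCR reads are not independent molecules. Promoters were RefSeq's (GRCm38.p6).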

Additional observations from a re-analysis of the deposited data

Results flagged for a closer look

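The effect of imiquimod differed between day 6 and day 30 by a test of the difference itself (edgeR, adjusted over all genes) for 20 members. Day 6 minus day 30, the log2 difference was 2.55 for Acat2, 1.26 for Mvk, 1.58 for Pmvk, 3.37 for Mvd, 1.50 for Idi1, 2.05 for Fdps and 1.76 for Fdft1. In the later sterol steps it was 3.23 for Sqle, 1.99 for Lss, 2.52 for Cyp51, 2.27 for Msmo1, 1.64 for Nsdhl, 1.59 for Hsd17b7, 1.78 for Ebp and 1.23 for Dhcr7. Among control and fatty acid genes it was 1.04 for Srebf2, 2.10 for Stard4, 1.21 for Acly, 0.90 for Acaca and 3.49 for Scd2. In each case the effect was more positive at day 6. No group had the 4 libraries needed to test for a sample far from the others.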

How the results depend on the processing

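With 2 libraries a group, counts of members called moved with the setting. Of 2697 alternative values of the 121 member results that passed, 373 no longer passed and none reversed. The alternatives reuse the same counts in which these results had passed, so a reversal was unlikely from the start. Numbers of members called follow. Shares over all genes are given above for some of the DESeq2 and block settings only. The other numbers, such as those without the filter, thus do not set the members apart from other genes. For imiquimod against control at day 30 they were 4 with DESeq2, 10 without the filter and 1 with the replicate block; at 6 h, 6 without the filter and 1 with the block; at 12 h, 1 without the filter. For 6 h against day 30 in post-imiquimod skin they were 16 without the filter and 18 with the block. For 12 h against day 30 in control skin they were 15 with the block, 4 without both day 30 libraries numbered 1 and 16 without both numbered 2. For 12 h against 6 h they were 21 with DESeq2, 25 without the filter, 18 with only the compared groups and 26 with the block in post-imiquimod skin, and 26 without the filter and 26 with the block in control skin. For the effect at day 6 against that at day 30 the number was 10 with only the compared groups. For the wound response in post-imiquimod against control skin they were 3 with DESeq2 and 11 without the filter at 6 h, and 5 without the filter at 12 h. The cause of these shifts was not tested. With the block 1 of the 121 calls no longer passed, Scd2 at day 6. The block pairs libraries within a time only, so between times it is no paired test.

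Leaving out 1 library at a time, imiquimod against control gave 9 to 20 members at day 6, 0 to 1 at day 30, 0 to 0 at 6 h and 0 to 0 at 12 h. Wounding against day 30 gave 5 to 16 at 6 h and 12 to 19 at 12 h in post-imiquimod skin, and 17 to 24 at 6 h and 2 to 14 at 12 h in control skin. The 12 h against 6 h comparison gave 0 to 15 in post-imiquimod and 5 to 16 in control skin. The effect at day 6 against day 30 gave 13 to 21, and the response differences 0 to 0 at 6 h and 0 to 0 at 12 h. Where an omission left 1 library in a group, that library was assumed to vary like the other groups.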
